A study of Danio rerio with 4 samples.

Results

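The PCNA clamp and clamp loader genes of the adult zebrafish heart are described here as 9 genes of 14962 in a deposited heart comparison table. They were taken by gene symbol: pcna, the clamp loader genes rfc1 to rfc5, the alternative loader gene dscc1, the flap endonuclease gene fen1 and dtl. All 9 symbols were found, each once. Their place in the table follows from the rule that took them from it, and 9 of 9 also passed the low-level filter of the count libraries. The study compared hearts of adult Ekkwill zebrafish, with no transgene or mutant allele named, after daily injections of vehicle or of alfacalcidol over 3 days. Alfacalcidol is a vitamin D analog that becomes active after hydroxylation in the liver, and its dose is not given in the labels. Hearts were collected 24 hours after the last injection. Each group had 2 count libraries, and the labels do not say whether these came from separate animals or pools. For each gene the table lists its mean level, log2 fold change and p-values, and no value per library.

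PCNA is a ring that encircles DNA and holds DNA polymerase delta on its template during S phase. Replication factor C, a complex of a large subunit encoded by rfc1 and small subunits encoded by rfc2 to rfc5, opens the ring and closes it around primed DNA. The same small subunits also assemble with other large subunits into alternative loaders. Once loaded, the ring recruits enzymes that mature the lagging strand, such as the flap endonuclease Fen1, and the ubiquitin ligase CRL4 with its receptor Dtl. The adult zebrafish heart has few dividing muscle cells at rest but can regenerate, and PCNA is widely used there as a marker of cells in cycle.

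The table and the count libraries held different RNA by the markers of the tissue label. The summed level of 8 heart muscle genes was 84870 CPM (counts scaled to the library total) in the authors' deposited table but at most 240.3 CPM in any of the 4 count libraries. In contrast, 8 skeletal muscle genes summed to 1533 CPM in the authors' deposited table, with 1492 CPM from ckma alone, and to between 38410 and 44200 CPM in the libraries. Epidermal genes summed to 120 CPM (4 measured) and to between 19080 and 28250 CPM (6 measured). For 8 epicardium and fibroblast genes it was 470.5 CPM and between 9841 and 10510 CPM. Most of that library sum came from col1a1a (5499 to 6072 CPM) and col1a2 (2916 to 3154 CPM). The genes postnb, pdgfra and wt1b were also higher in the libraries. In contrast, tcf21 (10.9 CPM against 1.74 to 2.48), aldh1a2 (130.9 against 49.8 to 57.3) and tbx18 were higher in the authors' deposited table. The 7 endothelial genes summed higher in the authors' deposited table, at 993.4 CPM, than in the libraries, at between 184.2 and 195.2 CPM. Libraries labelled heart thus held little RNA of heart muscle genes, so the sources are kept apart and each library is named by its label. Depth ran from 31427486 to 39572163 counts per library, and the depth behind the table is not known. The numerator of the table's fold change is not named either. It was read from cyp24a1, the vitamin D 24-hydroxylase gene and a known receptor target. The authors' deposited table lists cyp24a1 at a log2 fold change of 1.53 (edgeR adjusted p 8.19e-05) and a mean of only 3.69 CPM. Positive is therefore called higher with alfacalcidol throughout, and this reading of the direction rests on cyp24a1 alone.

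The authors' deposited table lists all 9 clamp and loader genes as higher, at an edgeR adjusted p under 0.05, where 10.9% of the 14962 genes were called higher. With at least 2-fold added, 8 members passed against 5.13% of all genes of the authors' deposited table, at an adjusted p of 0.01 it was 9 against 7.53%, and by Bonferroni 9 against 3.84%. Their median log2 fold change was 1.93, against 0.01 for all genes of the authors' deposited table, and they ran from 0.95 for rfc1 to 5.54 for dscc1. The genes dscc1 and dtl stood apart in the authors' deposited table at 5.54 and 5.45, and the other 7 genes ran without a clear gap from 0.95 for rfc1 to 2.65 for pcna. In the authors' deposited table, dscc1 and dtl lay above the 99th percentile of all genes (3.38), and every member but rfc1 lay above the 95th (1.01). The genes were chosen with earlier results of these data known, so their joint direction is a description. With equal groups, dscc1 and dtl would stand at only 0.13 and 0.09 CPM with vehicle. They may thus have entered the authors' deposited table only through the group where they are high, and their share in these counts is no support. In RNA of whole hearts, more cells that express a gene and more RNA per cell cannot be told apart.

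**Figure D1:**
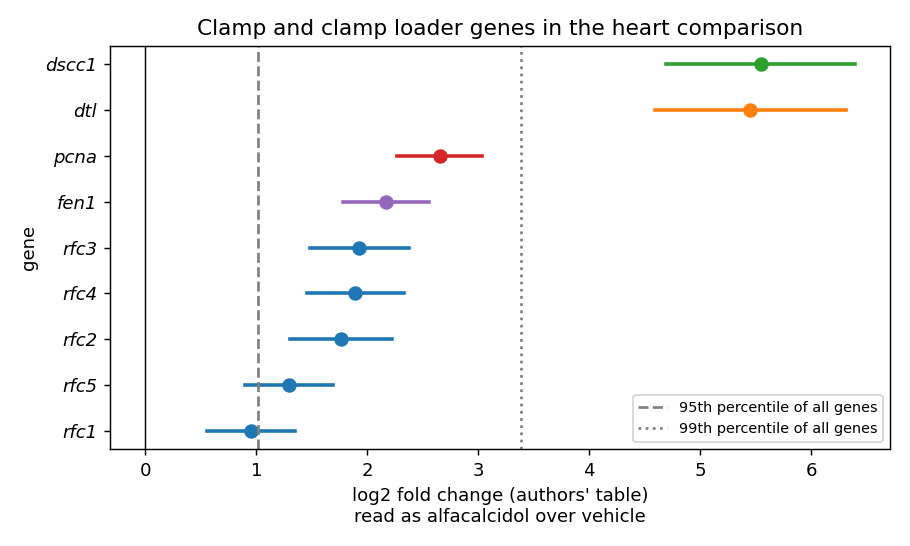
Log2 fold change of each of the 9 genes (horizontal axis) as the authors' deposited table gives it, with approximate 95% intervals as bars. Dashed and dotted lines mark the 95th (1.01) and 99th (3.38) percentile of all 14962 genes; dscc1 and dtl lie to the right of both, and rfc1 at 0.95 is the only one left of the dashed line.

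The clamp gene itself, pcna (ENSDARG00000054155, chromosome 10, 40900618 to 40905471, GRCz10), was 6.28-fold higher in the authors' deposited table. That is a log2 fold change of 2.65 (edgeR adjusted p 7.99e-39; approximate 95% interval 2.27 to 3.04, calculated from the deposited fold change and p). The mean level of pcna was 72.2 CPM in the authors' deposited table, and if both groups held equal numbers of libraries this mean and fold would stand for 19.8 CPM with vehicle and 124.5 CPM with alfacalcidol. By size of fold change pcna held rank 228 of 14962 in the authors' deposited table. Among the 1131 genes within 0.5 log2 CPM of its level it held rank 3, and 4.95% of those 1131 genes were called higher. At its level, then, few genes of the table had a larger increase.

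The gene fen1 encodes the nuclease that trims the flap at the end of each Okazaki fragment while bound to PCNA. In the authors' deposited table fen1 (ENSDARG00000011404, chromosome 24, 11768375 to 11779147, GRCz10) was 4.50-fold higher, a log2 fold change of 2.17 (edgeR adjusted p 5.42e-26; approximate 95% interval 1.78 to 2.56) at a mean of 20.1 CPM. Its interval overlaps that of pcna, and the difference between the 2 genes was not tested. Its rank by fold change was 288 of 14962, and 24 of the 2452 genes of like level in the authors' deposited table.

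The 5 subunit genes of replication factor C were called higher in the authors' deposited table, with fold changes of 3.81 for rfc3, 3.71 for rfc4, 3.40 for rfc2, 2.46 for rfc5 and 1.93 for rfc1. In the authors' deposited table rfc3 (ENSDARG00000055969, chromosome 10, 34080393 to 34089605) had a log2 fold change of 1.93 (edgeR adjusted p 1.08e-15; approximate 95% interval 1.48 to 2.37). For rfc4 (ENSDARG00000042458, chromosome 11, 45049043 to 45057477) it was 1.89 in the authors' deposited table (edgeR adjusted p 1.63e-15; interval 1.45 to 2.33). For rfc2 (ENSDARG00000014274, chromosome 21, 25169684 to 25177011), it was 1.77 in the authors' deposited table (edgeR adjusted p 2.45e-12; interval 1.31 to 2.23). These 3 small subunits changed by nearly the same amount, and the intervals of all pairs among them overlap.

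The remaining small subunit gene, rfc5 (ENSDARG00000035634, chromosome 5, 12028476 to 12049515), is listed in the authors' deposited table at a log2 fold change of 1.30 (edgeR adjusted p 4.84e-09; approximate 95% interval 0.90 to 1.69). The large subunit gene rfc1 (ENSDARG00000054799, chromosome 1, 22552304 to 22577830) had 0.95 (adjusted p 4.28e-05; interval 0.55 to 1.35) and was the only member below 2-fold in the authors' deposited table. The interval of rfc5 overlaps those of rfc2, rfc3 and rfc4. That of rfc1 ends below those of rfc3 and rfc4 and overlaps those of rfc2 and rfc5. Genes of 1 table share their libraries, and the differences between members were not tested. Mean levels in the authors' deposited table were 21.1 CPM for rfc1, 15.6 for rfc5, 10.9 for rfc2, 8.31 for rfc3 and 7.82 for rfc4; these are not divided by transcript length and cannot be ranked as amounts of RNA.

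The gene dscc1 encodes a subunit of the Ctf18 loader, which acts on PCNA at forks and in sister chromatid cohesion. In the authors' deposited table dscc1 (ENSDARG00000019907, chromosome 16, 14681888 to 14697212, GRCz10) was 46.7-fold higher, a log2 fold change of 5.54 (edgeR adjusted p 5.13e-35; approximate 95% interval 4.69 to 6.40). That was rank 4 of 14962 by fold change and rank 1 of the 2076 genes of like level in the authors' deposited table. Its mean was only 3.09 CPM there, and with equal groups this would stand for 0.13 CPM with vehicle and 6.06 CPM with alfacalcidol. Whether any vehicle library behind the table held reads of dscc1 is not known, so the size of the change is uncertain. The gene may also have entered the table only through the group where it is high, which limits what its ranks mean.

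The other parts of the same loader were also called higher by the authors' deposited table, with chtf18, its large subunit, at a log2 fold change of 4.15 (edgeR adjusted p 5.43e-33), and chtf8, the partner of dscc1, at 3.49 (adjusted p 9.95e-16). The mean levels of chtf18 and chtf8 were only 3.59 and 1.455 CPM in the authors' deposited table. The limits given for dscc1 may therefore hold for these genes too. The 5 genes that encode large subunits for the shared rfc2 to rfc5 core can be set side by side. In the authors' deposited table chtf18 stood at 4.15 (approximate 95% interval 3.49 to 4.81). The gene atad5a, whose human counterpart serves in taking PCNA off DNA, stood at 2.36 (interval 1.87 to 2.85), and rfc1 at 0.95 (interval 0.55 to 1.35). The DNA damage loader gene rad17, at 0.34 (interval -0.12 to 0.79; edgeR adjusted p 0.340), and the second atad5 copy, atad5b, at 0.17 (interval -0.29 to 0.63; adjusted p 0.691), were not called in the authors' deposited table. The intervals of chtf18, atad5a and rfc1 do not overlap one another; these differences were not tested, and rfc1, rad17 and atad5b overlap.

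The gene dtl encodes the receptor by which the CRL4 ubiquitin ligase recognises proteins bound to PCNA on chromatin. In the authors' deposited table dtl (ENSDARG00000023002, chromosome 20, 13245428 to 13278185, GRCz10) was 43.7-fold higher, a log2 fold change of 5.45 (edgeR adjusted p 4.07e-33; approximate 95% interval 4.59 to 6.31). Its rank by fold change was 6 of 14962, and 3 of the 1921 genes of like level. The mean was 2.02 CPM in the authors' deposited table, which with equal groups would stand for 0.09 CPM with vehicle and 3.95 CPM with alfacalcidol. The limits given for dscc1 hold here too.

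Of 14 measured genes of the CRL4-Dtl ligase, its substrates and their regulators, the authors' deposited table called 4 higher and 0 lower. Over all its genes, 10.9% were called higher and 9.22% lower. The 4 were cdt1, a licensing factor, at 3.02, the kinase inhibitor gene cdkn1a at 1.09, the histone methyltransferase gene setd8b at 2.04 and gmnn, which encodes the Cdt1 inhibitor geminin, at 1.18 (edgeR adjusted p 5.94e-20, 1.03e-07, 1.03e-07 and 0.000238). The first 3 encode proteins whose counterparts this ligase is known to mark for destruction. Other listed genes outside the ligase itself were not called: setd8a at 0.08, tdg.1 at 0.05, tdg.2 at 0.22, cdkn1bb at -0.14 and ercc5 at -0.16. Mean levels in the authors' deposited table were only 1.93 CPM for setd8b, against 34.6 CPM for setd8a, and 4.02 CPM for cdt1. The limits given for dscc1 may hold for setd8b and cdt1 too. The core subunits of the ligase were not called in the authors' deposited table: cul4a stood at -0.16, cul4b at -0.29, ddb1 at 0.04 and rbx1 at 0.02. All genes named here as not called were chosen after their values were seen. Among the measured parts of the ligase, dtl was therefore the one with a call, beside a median of 0.05 over the list in the authors' deposited table.

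**Figure D2:**
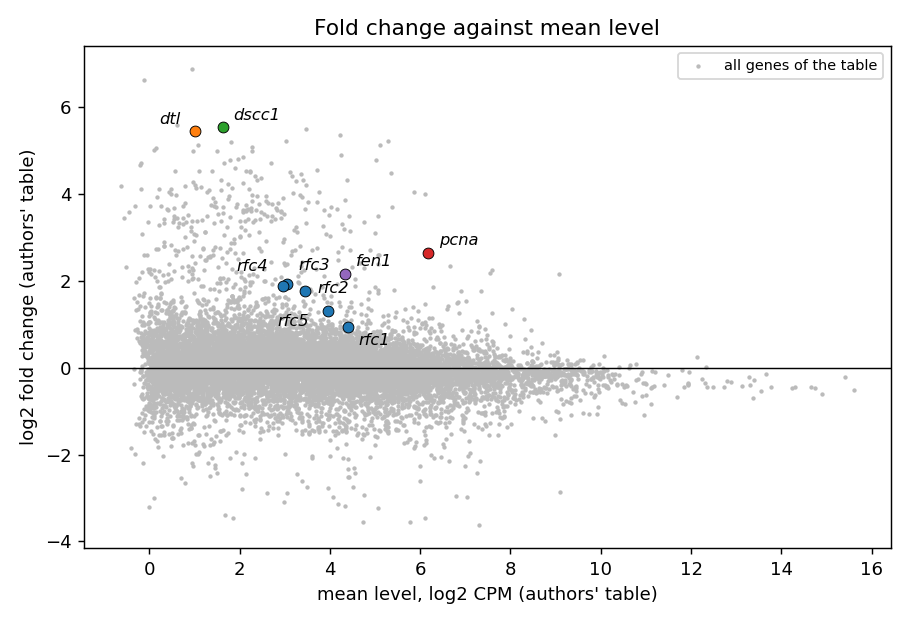
Log2 fold change (vertical axis) against mean level in log2 CPM (horizontal axis) in the authors' deposited table, with all 14962 genes in grey and the 9 clamp and loader genes coloured and named. The genes dscc1 and dtl combine the largest increases of the 9 (5.54 and 5.45) with means of 3.09 and 2.02 CPM, and pcna at 72.2 CPM stands above nearly all genes of its level.

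Further genes of the pathway were described through 5 lists with 73 measured genes. Of these, 41 were called higher and 1 was called lower by the authors' deposited table, in which 10.9% of all genes were called higher and 9.22% lower. Among 7 measured genes of the alternative loaders and the 9-1-1 checkpoint clamp, the authors' deposited table called 5 higher and 0 lower, and their median was 0.94. Beside chtf18, atad5a and chtf8 these were rad9a at 0.94 and rad1 at 0.60 (edgeR adjusted p 0.0276 and 0.0311), which encode parts of the 9-1-1 ring.

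For DNA polymerase delta and the maturation of Okazaki fragments, the authors' deposited table called 7 of 11 measured genes higher and 1 lower. Beside this, 10.9% of all its genes were called higher and 9.22% lower. The median of the list was 1.01. The DNA ligase gene lig1 was higher at 2.39, the catalytic subunit gene pold1 at 2.11 and its partner pold2 at 2.15 (edgeR adjusted p 5.29e-32, 5.95e-19 and 6.06e-16, all from the authors' deposited table). These 3 lie close to fen1, at 2.17, with which their products finish the lagging strand. Other subunit genes of the polymerase lay lower: pold3 was called higher at 1.01, and POLD4 was not called, at -0.41. Both were named after their values were seen. The ribonuclease H2 gene rnaseh2c was higher at 1.07 (adjusted p 6.65e-07), while poldip2 was lower at -0.55 (adjusted p 0.0208) in the authors' deposited table.

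In the list of PCNA ubiquitination and damage tolerance, the authors' deposited table called 10 of 21 measured genes higher and 0 lower. Beside this, 10.9% of all its genes were called higher and 9.22% lower. The median of the list was 0.59. The largest of these was primpol, a primase that restarts stalled forks, at 4.99 (edgeR adjusted p 5.00e-50). The mean of primpol was only 4.83 CPM in the authors' deposited table, and the limits given for dscc1 may hold here too. The gene rad18, whose product attaches ubiquitin to PCNA, stood at 1.59, the helicase gene zranb3 at 1.44 and the translesion polymerase gene polh at 0.80 (adjusted p 4.53e-07, 2.75e-07 and 0.00169, from the authors' deposited table). Apart from primpol, the called genes of this list thus lay at or below 1.59 in the authors' deposited table. That is under the values of rfc2, rfc3 and rfc4, but rad18 and zranb3 lay above rfc5 (1.30) and rfc1 (0.95).

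The last list held chromatin assembly, cohesion, fork and mismatch repair genes whose products act with or near PCNA, and the authors' deposited table called 15 of 20 measured higher and 0 lower. Over all genes of the authors' deposited table, 10.9% were called higher and 9.22% lower. The median of this last list, 1.91, was close to the 1.93 of the 9 clamp and loader genes. The chromatin assembly factor genes chaf1a and chaf1b were higher at 3.49 and 4.52, uhrf1, which recruits the maintenance methyltransferase, at 3.71 and the fork gene wdhd1 at 4.53 (edgeR adjusted p 4.07e-58, 1.08e-53, 3.09e-53 and 2.74e-40, from the authors' deposited table). The means of wdhd1 and chaf1b were only 4.73 and 8.65 CPM there, and the limits given for dscc1 may hold for these genes too. They may also hold for other called genes of this list, which enter its count and median. Among these, named after their values were seen, are exo1 (4.67, mean 0.86 CPM), esco2 (3.59, mean 5.6 CPM) and unga (2.58, mean 2.53 CPM). No list was tested against other genes.

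**Figure D3:**
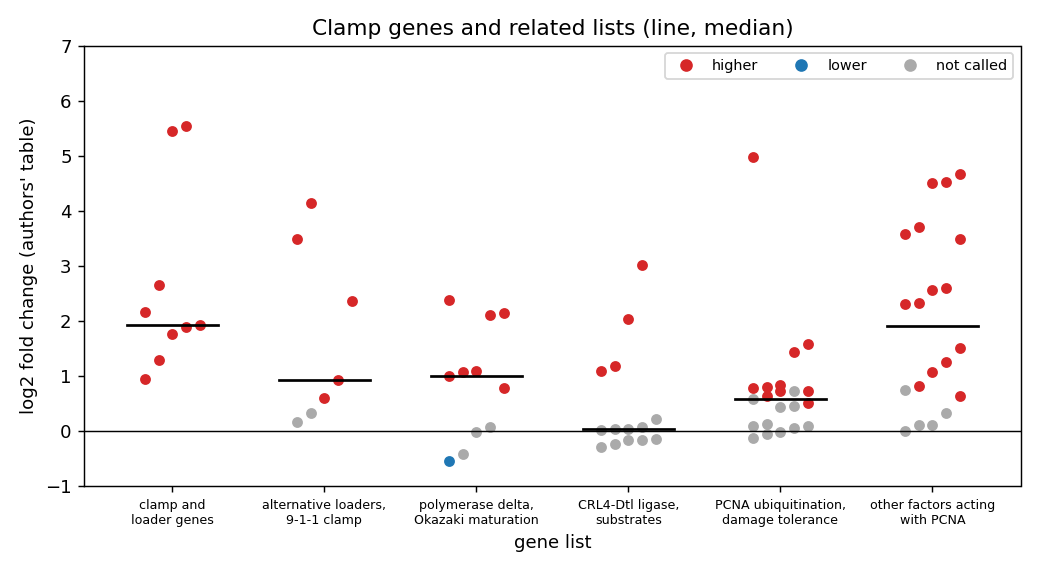
Log2 fold change in the authors' deposited table (vertical axis) of every measured gene of the 9 clamp and loader genes and of the 5 related lists, coloured by whether it was called higher, lower or not, with the median as a line. The ligase list sits near 0 (median 0.05) with 4 of 14 genes called higher, beside 10.9% of all genes. The last list has a median of 1.91.

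The genes next to the members on the chromosomes were called about as often as genes in general. Of the 18 nearest genes of the authors' deposited table on either side of the 9 members, 3 were called higher and 1 lower, beside 20.1% of all genes called in either direction, and their median log2 fold change was -0.03. The largest change among them was that of si:dkey-183i3.5, 9185 bases from rfc2, higher at 1.24 (edgeR adjusted p 0.00302) in the authors' deposited table, and gemin6, 33686 bases from rfc4, was higher at 0.77 (adjusted p 0.00739). The closest was tm9sf1, 403 bases from fen1, at 0.27 (edgeR adjusted p 0.435) in the authors' deposited table. The gene deptor, 707 bases from dscc1, stood at -0.38 (adjusted p 0.281), and rpl9, 933 bases from rfc1, at -0.13 (adjusted p 0.676). At dtl both neighbours were called by the authors' deposited table, ints7 as higher at 0.70 and ppp2r5a as lower at -0.52 (adjusted p 0.0163 and 0.0322). Only rfc4 lies within the span of other genes of the table, pycr1b (0.55, adjusted p 0.0280) and sos1 (-0.38, adjusted p 0.245), and because the strand setting of the counting is not given, reads of rfc4 cannot be fully told apart from theirs.

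Markers of some other cell types were called in the same comparison of the authors' deposited table, mostly as lower. Of 5 neutrophil genes 5 were lower, at a median of -2.07, of 7 macrophage genes 4 were lower and of 7 endothelial genes 4 were lower. Beside this, 9.22% of all genes of the authors' deposited table were called lower. The 5 neutrophil genes summed to only 15.3 CPM there, and may have entered the table only through the group where they are high. Heart muscle genes were lower in 3 of 8 and not called in 5, and their median in the authors' deposited table was -0.42. The 3 were myh6 at -0.65, nppa at -1.09 and nppb at -1.37. The 5 not called were myl7, vmhcl, vmhc, cmlc1 and tnnt2a, at -0.45 to -0.10. Of 8 gonad and germline genes 1 was measured in the authors' deposited table, ccnb3, a mitotic cyclin gene, higher at 2.60. Of 8 lymphocyte and blood progenitor genes, runx1 alone was measured, lower at -1.24. Epidermal genes were lower in 2 of 4 and erythrocyte genes in 2 of 5 in the authors' deposited table. In the epicardium and fibroblast list 7 of 8 genes were not called (median 0.10), nor were 6 of 8 skeletal muscle genes (median 0.06), with 1 and 2 lower, and both measured cartilage and bone genes were not called in the authors' deposited table. The table has no summed level per group, and the part of any of these cells in the increase of the clamp genes was not tested.

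In the 4 count libraries the clamp and loader genes were all detected, and no member was called between the labels. Of all 22428 genes tested 0 were called, so these libraries show no called response against which the members could be read. The gene pcna stood at 233 and 212 CPM in the vehicle libraries (replicates 1 and 2) and at 211 and 217 CPM in the alfacalcidol libraries. The first vehicle library was the highest, the other 3 lay close together, and the groups overlap. The log2 fold change of pcna was -0.05 ± 0.08 (SE, n = 2 per group; 95% interval -0.25 to 0.14; edgeR adjusted p 1.0).

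The members with the highest fold change in the table, dscc1 and dtl, were not called here either. The gene dscc1 stood at 5.66 and 5.15 CPM with vehicle and 4.88 and 6.05 CPM with alfacalcidol, and dtl at 6.62 and 6.45 CPM with vehicle and 6.23 and 6.68 CPM with alfacalcidol. In both, the second alfacalcidol library was the highest and the first the lowest, so the groups overlap. Between the highest and the lowest library dscc1 varied by 1.24-fold and dtl by 1.07-fold. Their log2 fold changes were 0.02 ± 0.17 (SE, n = 2 per group; 95% interval -0.39 to 0.43) and -0.02 ± 0.14 (interval -0.34 to 0.31), with an edgeR adjusted p of 1.0 each. The gene fen1 stood at 30.7 and 28.4 CPM with vehicle and at 26.8 and 31.8 CPM with alfacalcidol, the same order of libraries, with a log2 fold change of -0.01 ± 0.11 (interval -0.27 to 0.25).

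Among the subunits of replication factor C, rfc1 stood at 35.8 and 30.2 CPM with vehicle and at 31.1 and 30.7 CPM with alfacalcidol. For rfc2, which binds ATP within the loader, the values were 15.2 and 12.8 CPM with vehicle and 12.7 and 12.3 CPM with alfacalcidol. It was the only member whose groups did not overlap, both alfacalcidol libraries being lower, and 21.0% of all 22428 genes tested had groups that did not overlap. Its log2 fold change was -0.17 ± 0.12 (SE, n = 2 per group; 95% interval -0.45 to 0.12; edgeR unadjusted p 0.207). The genes rfc3, rfc4 and rfc5 ran from 15.2 to 16.5, from 14.4 to 17.0 and from 23.6 to 24.6 CPM over the 4 libraries, and their groups overlapped.

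**Figure D4:**
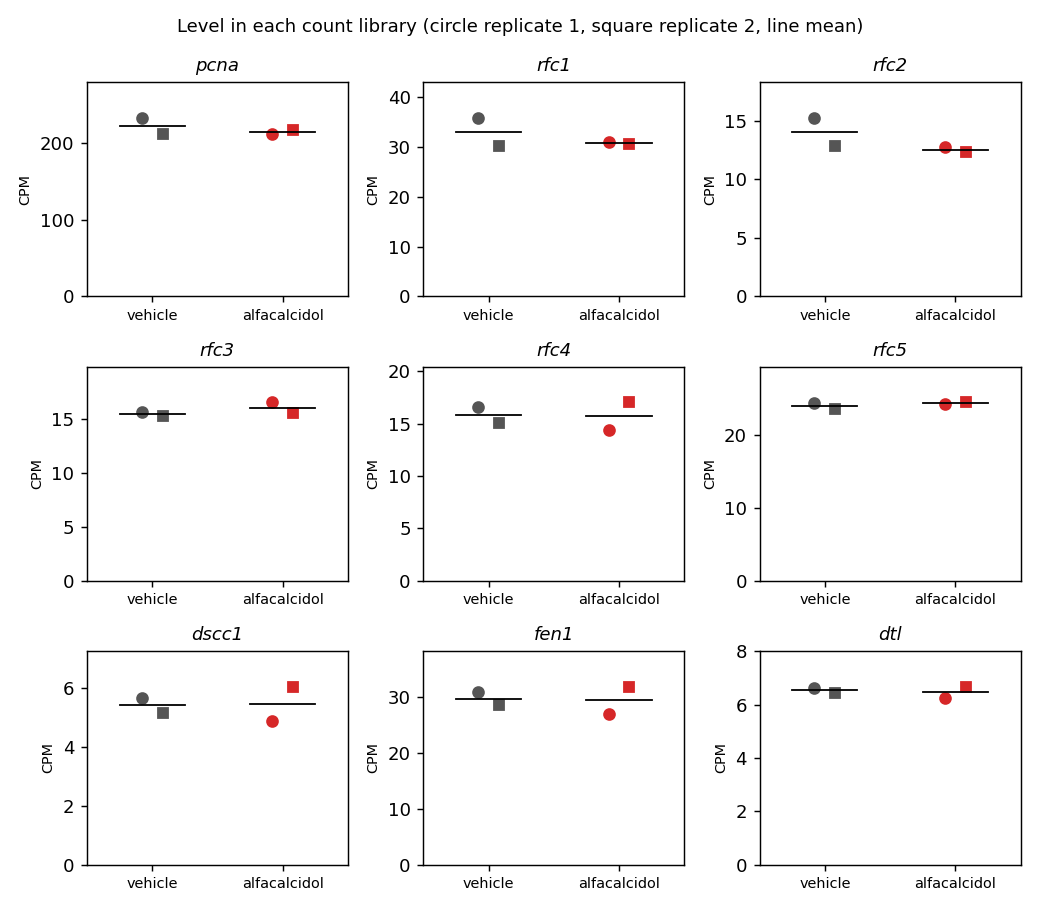
Level in CPM (vertical axis, from 0) of each of the 9 genes in the 4 count libraries, with vehicle in grey, alfacalcidol in red, replicate 1 as a circle and replicate 2 as a square, and the group mean as a line. The groups overlap for every gene but rfc2, which stood at 15.2 and 12.8 against 12.7 and 12.3 CPM.

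Over the count libraries as a whole, the edgeR quasi-likelihood test called 0 of 22428 genes (0%). An unadjusted p under 0.05 was found for 128, fewer than that threshold alone would give without any effect. DESeq2 and limma-voom called 0 as well; their unadjusted p was under 0.05 for 20 and 121 genes. The number of genes at an unadjusted p under 0.05 in edgeR was 204 without vehicle replicate 1, 294 without vehicle replicate 2, 301 without alfacalcidol replicate 1 and 164 without alfacalcidol replicate 2, and no gene was called in those fits. When libraries of unlike number (vehicle 1 and alfacalcidol 2, vehicle 2 and alfacalcidol 1) were paired as a block, a setting chosen after seeing the data, it was 788, and 7 genes were called, none of them a member. Log2 fold changes of the 9 genes lay between -0.17 and 0.05, and the upper ends of their 95% intervals between 0.12 and 0.43. The libraries hold different RNA from that behind the authors' deposited table, so these values are not a repeat of its comparison. The libraries also paired across the labels (correlation of same-numbered deviations -0.47), so their spread may not be that of independent samples, and the values do not show that no member differs between the labels.

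**Figure D5:**
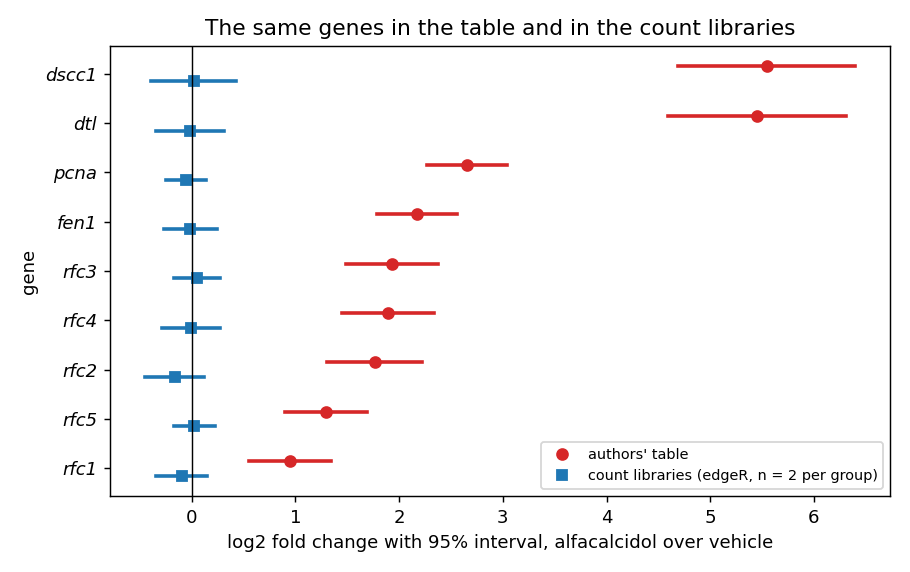
Log2 fold change with 95% interval (horizontal axis) of each gene in the authors' deposited table (red circles, approximate intervals) and in the count libraries (blue squares, edgeR, n = 2 per group). Every blue interval spans 0 and ends at or below 0.43, and the red points lie between 0.95 and 5.54. The sources hold different RNA, and no test was made across them.

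All 9 genes had a higher mean CPM in the count libraries than in the authors' deposited table, which were normalised separately and hold different RNA. The deposited mean covers both groups. With equal groups, its alfacalcidol level would lie above the library mean for dscc1 (6.06 against 5.44 CPM), fen1 (32.9 against 29.4) and rfc2 (16.8 against 13.3). For the remaining members it would lie below. The share of all genes with a higher mean in the libraries was not computed, so the higher library means cannot be read as a trait of the clamp genes. The ratio of the library mean to the authors' deposited mean was 3.22 for dtl, 3.02 for pcna, 2.02 for rfc4 and 1.90 for rfc3. It was 1.76 for dscc1, 1.55 for rfc5, 1.51 for rfc1, 1.46 for fen1 and 1.22 for rfc2. No test was made across the sources.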

How the data were processed

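RNA of zebrafish tissue labelled heart was sequenced in 4 libraries, 2 per group. Raw read counts per Ensembl gene were deposited by the authors, who list CASAVA, TopHat2, featureCounts and the build GRCz10 in the submitters' processing notes; the sources used here give no versions and no strand setting. The log2 fold changes and mean log2 CPM were deposited by the authors as edgeR output, per the same notes. The p-values were deposited by the authors unadjusted and adjusted, and the adjusted ones equal a Benjamini-Hochberg adjustment over 14962 genes. Its fold changes may carry a prior count, which shrinks those of low genes.

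Members were matched by symbol in the table and joined to the counts by Ensembl gene ID. Approximate intervals of table values divide the fold change by the normal quantile of its p; they are least exact for low genes. Levels per group assume equal numbers of libraries. The count fit used R 4.3.3 and, with TMM scaling, filterByExpr and group as its term, the two-sided quasi-likelihood test of edgeR 4.0.16, with limma 3.58.1 and DESeq2 1.42.0 as alternatives, and adjusted over 22428 genes at 0.05. With 2 libraries per group whose separate origin is not stated, p-values measure the spread between these libraries, which may be technical. No 2 libraries were identical (mean chi-square per gene 2.29 to 24.1 over genes with 200 or more reads in the pair). The closest pairs crossed the labels, vehicle 2 with alfacalcidol 1 at 2.29 and vehicle 1 with alfacalcidol 2 at 7.72. Pairs within a group stood at 20 for vehicle and 22.7 for alfacalcidol, and the other pairs across the labels at 19.9 and 24.1. Libraries of 1 group thus differed more than these crossed pairs did.

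Same-numbered libraries deviated in opposite directions (correlation -0.47 over 22428 genes), so the numbers do not pair them. Members, lists and rules were chosen with earlier results of these data known. All members were named, with up to 4 called genes per related list by lowest p in the table, or, without a call, the lowest 2 by p. Genes named for their role besides were chosen after their values were seen. Related list names were matched where a symbol stood for 1 gene ID. No sequence was printed and no reference genome was used.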

Additional observations from a re-analysis of the deposited data

How the results depend on the processing

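The authors' deposited values had 9 of 9 members higher at an adjusted p of 0.05, 9 at 0.01 and 9 by Bonferroni, and 8 with at least 2-fold, which leaves out rfc1; centring on the median of all genes (0.01) or of 78 ribosomal protein genes (-0.12) turned no member. For the alternative loaders and 9-1-1 clamp the 5 higher calls became 3 at an adjusted p of 0.01 and 3 with at least 2-fold. For PCNA ubiquitination the 10 became 3 with at least 2-fold. The lower call in the polymerase delta list, poldip2, was lost at both settings (0 and 0). In the count libraries 0 members were called under every alternative run. With the replicate number as a block edgeR called 0 genes; with the crossed pairing as a block, added after the data were seen, it called 7 genes and 0 members. Leaving out each library in turn gave 0 and 0 calls for all genes and members; each such fit has 1 library in a group, assumed to vary like the other group, and with 0 calls to begin with this says nothing of stability. Those fits gave log2 fold changes from -0.118 to 0.015 for pcna, -0.211 to 0.03 for rfc1, -0.282 to -0.038 for rfc2, 0.008 to 0.099 for rfc3, -0.135 to 0.106 for rfc4, 0.003 to 0.051 for rfc5, -0.149 to 0.162 for dscc1, -0.141 to 0.104 for fen1 and -0.068 to 0.032 for dtl. The sign of pcna, rfc1, rfc4, dscc1, fen1 and dtl thus depends on single libraries, and none was called. The mean of 2.02 CPM for dtl and 3.09 CPM for dscc1 limits the precision of their fold changes in the table, whose libraries cannot be left out.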
